A study of Mus musculus with 8 samples.

Results

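The tumour necrosis factor (TNF) ligand and receptor superfamily was examined in mouse thyroids 24 hours after exposure to 99mTcO4-, the pertechnetate form of technetium-99m, a gamma-emitting isotope that the thyroid takes up like iodide. Members were all non-control probes whose gene name on the array began with Tnfsf or Tnfrsf and a number, or was Tnf, Lta, Ltb, Cd40, Cd27, Cd70, Cd40lg, Ltbr, Eda, Edar, Eda2r or Ngfr, with Tnfrsf10b left out. This gave 54 of 55681 probes and 41 of 34797 gene names, 16 for ligands and 25 for receptors. A single probe stood for 29 of the genes, 2 probes for 11 genes and 3 probes for 1 gene. Under the name Tnfsf13 no probe was found, and that ligand was not analysed here.

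RNA of 8 whole thyroids was hybridised to 8 one-colour Agilent arrays, 1 for each thyroid. All animals were female Balb/c mice of 8 weeks on a diet with normal iodide content. The 4 exposed thyroids (Tc, named S539, S588, S589 and S590) were exposed to 30 Gy by 99mTcO4- given into the peritoneum and were taken 24 hours later. The 4 control thyroids (Ct 1 to Ct 4) came from mice that the study calls untreated in its text and saline-treated in a legend. Values are log2 signals, background-subtracted and quantile-normalized between arrays, and a log2 fold change is the Tc mean minus the Ct mean. Each probe was tested with limma over all probes with Benjamini-Hochberg adjustment, and a probe was called at an adjusted p of at most 0.05. In whole-tissue RNA, fewer cells of a type and less RNA per cell cannot be told apart.

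Ligands of this superfamily are membrane proteins that act as trimers, some of them also after shedding, and their receptors cluster on the target cell. Receptors with a death domain, such as Tnfrsf1a, can pass the signal to caspases or to NF-kB. Many of the others recruit TRAF adaptors and act mainly through NF-kB and kinase cascades, and some are decoys. Many members serve lymphocytes, for instance in costimulation of T cells and survival of B cells. Others act on epithelium and connective tissue, such as Tnfrsf12a, the receptor for TWEAK (the product of Tnfsf12), and the ectodysplasin receptors Edar and Eda2r.

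Between 60.5% and 77.3% of the spots were well above background on the 8 arrays, and none was saturated. The share was 60.5% to 67.9% on Ct 2 to Ct 4 and 70.9% to 77.3% on the Tc arrays. Ct 1 lay within the range of the Tc arrays. Fewer spots therefore passed on most control arrays over all probes. The numbers of Ct and Tc arrays with a probe well above background, given below, were not corrected for this. The correlation between arrays over all probes lay between 0.943 and 0.975. All arrays lay on 1 slide in 1 scan, the exposed samples first, so that slide position cannot be told apart from exposure. The thyrocyte marker Tg (thyroglobulin) was at 18.70 to 19.07 on every array. Other tissues were present too: the mean log2 signal of 6 skeletal muscle markers was 15.69 to 17.09 on Ct arrays and 14.69 to 16.67 on Tc arrays, and that of 3 parathyroid markers was 14.54 to 15.11 and 14.55 to 15.30. Markers of T cells set 2 control arrays apart. The mean of 10 T cell markers was 12.16 on Ct 1 and 10.91 on Ct 2, against 7.96 and 7.95 on Ct 3 and Ct 4 and 7.79 to 8.65 on the Tc arrays. All 10 markers were well above background in both groups, on at least 3 of 4 arrays. The mean of 8 markers of developing T cells was 10.35 and 9.52 on Ct 1 and Ct 2, against 6.16 to 7.18 on the other arrays, and the recombinase gene Rag1 was at 11.96 and 10.64 there, at 2.89 and 2.92 on Ct 3 and Ct 4 and at 2.80 to 5.45 on the Tc arrays. The mean of 5 neutrophil markers was 11.33 on S588 and 6.49 to 7.84 on the other arrays. Several results are therefore also given without Ct 1 and Ct 2, a choice made after seeing the data.

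For 4 of the genes described below, the beginning of each probe is printed so that probes of the same gene can be told apart. The arrays' coordinates are on mm9, each probe has 60 bases, and the first 30 are given as deposited, 5′ to 3′. Both Eda2r probes lie on the minus strand of chromosome X, at chrX:94534281-94534340 (starting at base 935 of the transcript) and chrX:94531320-94531379 (base 2544). The Tnfrsf12a probe lies at chr17:23812746-23812805 on the minus strand (base 571). The Cd27 probes lie on the minus strand at chr6:125183200-125183259 (base 956) and chr6:125183076-125183135 (base 1080). The Tnfrsf13b probes lie on the plus strand at chr11:60962770-60962829 (base 2451), chr11:60960405-60960464 (base 408) and chr11:60954823-60954882 (base 175). The array file names no exon or untranslated region for them.
Eda2r, base 935: cctcagagagccattctcaatgggtccata
Eda2r, base 2544: aatttggaagcaagcttaccttacattgta
Tnfrsf12a, base 571: agccttccaaggtgtccaattgccctatct
Cd27, base 956: tgtcatggtcatcagaaccctttcctgtga
Cd27, base 1080: aaagcacacttactctaagtgaaaccgtcc
Tnfrsf13b, base 2451: cctggagaatatagcctggctccatttgca
Tnfrsf13b, base 408: atcttctgctgtttcttggtggccttggcc
Tnfrsf13b, base 175: tcagctgtgactccacctgcacacagcacc

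No member passed limma's adjusted threshold: 0 of 54 probes and 0 of 41 genes were called, against 0.781% of all probes (435 of 55681). By the methods' t-test, which they name for comparisons of 2 groups in general but not for the arrays, the count with the same adjustment was also 0. At limma's unadjusted p under 0.05 there were 21 member probes, 8 higher and 13 lower in exposed thyroids. Read at 1 representative probe for each gene (the RefSeq probe of highest mean signal), 6 of the 41 genes (14.6%) were higher at an unadjusted p under 0.05, against a background of 6.56% of all genes, and 11 (26.8%) were lower, against 6.29%. Ligands and receptors were distributed differently in this count: of the 16 ligands none was higher and 6 were lower, whereas of the 25 receptors 6 were higher and 5 lower. The difference between both kinds was not tested. The median log2 fold change was -0.438 over the ligands, 0.056 over the receptors and 0.009 over all genes. These medians include dim probes: 8 of the 16 ligands and 20 of the 25 receptors were well above background on all 8 arrays. They were not recomputed without Ct 1 and Ct 2 or in the deposited values. The values of the 4 Tc arrays all lay above those of the 4 Ct arrays for 5 member genes (background 5.25% of all genes) and all below for 6 (background 4.74%). Without Ct 1 and Ct 2 the count at an unadjusted p under 0.05 was 6 higher (background 6.39%) and 4 lower (9.76% of members, background 6.94%), and of the ligands 1 was higher and 2 were lower. Without Ct 2 alone it was 6 higher (all genes, 5.1%) and 4 lower (all genes, 4.48%). Without S588 it was 8 (6.26%) and 6 (4.47%), without S589 6 (5.89%) and 6 (4.86%), and without S590 7 (6.18%) and 5 (5.92%), with the share of all genes in parentheses.

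**Figure D1:**
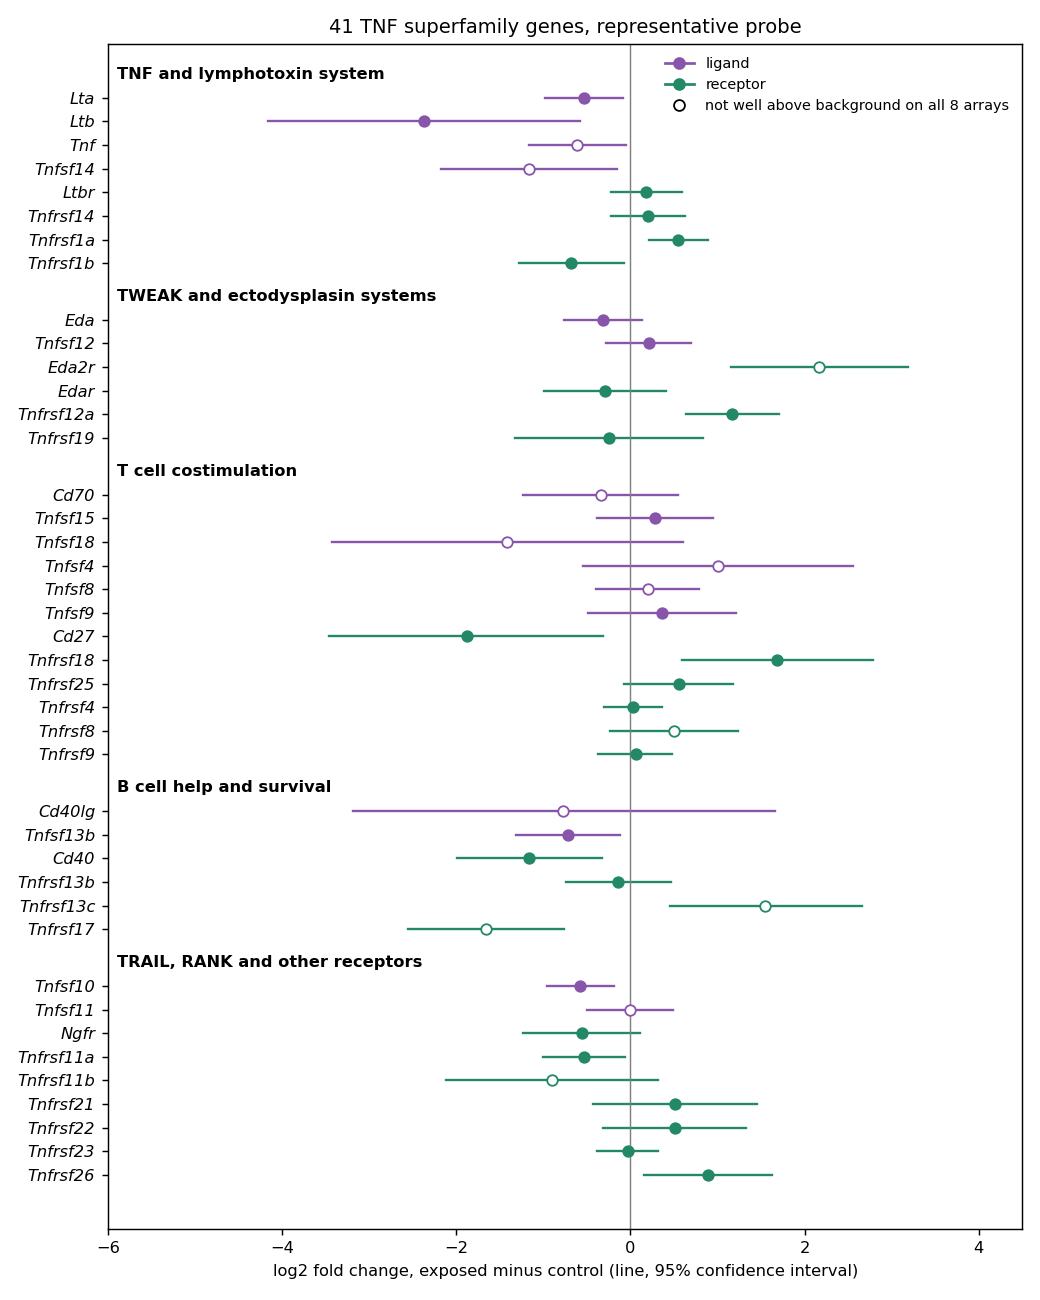
Log2 fold change (exposed minus control, horizontal axis) of the representative probe of each of the 41 genes, grouped by system, with the 95% confidence interval from limma as a line; purple is a ligand, green a receptor, and an open circle a probe not well above background on all 8 arrays. Eda2r (2.17) and Tnfrsf18 (1.68) lie farthest to the right and Ltb (-2.37) and Cd27 (-1.88) farthest to the left, the latter with wide intervals.

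By brightness, 32 of the 41 genes exceeded background clearly on each of the 4 arrays of at least 1 group, 28 on all 8 arrays, and 2, the ligand genes Cd70 and Tnfsf11, on none. The 10 representative probes of highest mean signal were those of Tnfrsf1a, Tnfrsf12a, Ltbr, Tnfrsf9, Tnfsf10, Tnfsf12, Tnfrsf25, Tnfrsf11a, Tnfrsf19 and Ngfr. This orders probes and not transcripts, since probes differ in how well they bind.

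Tnfrsf12a, also known as Fn14 and induced in many injured tissues, had the smallest adjusted p of all members. Its log2 signal was 12.20, 12.13, 12.18 and 12.67 on Ct 1 to Ct 4 and 13.98, 13.10, 13.26 and 13.53 on S539, S588, S589 and S590. Every exposed array lay above every control array, with S539 highest. The means were 12.30 ± 0.25 (SD, n = 4) and 13.47 ± 0.38 (SD, n = 4), a log2 fold change of 1.17 (SE 0.23) with a limma adjusted p of 0.0802. The same probe passed the threshold in the deposited values (1.17, adjusted p = 0.0244), with normexp background correction (0.0297), without background correction (0.0244), with a variance trend (0.0331) and with array weights (0.0295). Leaving out each array in turn gave log2 fold changes of 1.00 to 1.29 and adjusted p of 0.0955 to 0.23. Without Ct 1 and Ct 2 it was 1.03. Its ligand Tnfsf12 was at 10.80, 10.24, 10.08 and 9.88 on the Ct arrays and 10.61, 10.43, 10.43 and 10.38 on the Tc arrays. These groups overlapped, with Ct 1 highest, and the log2 fold change was 0.21 (95% confidence interval -0.28 to 0.70).

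Eda2r, a receptor for a splice form of ectodysplasin and a known transcriptional target of p53, was measured by 2 probes. On the probe at base 935 the Ct arrays were at 3.72, 4.01, 4.56 and 4.83 and the Tc arrays at 7.30, 5.37, 6.88 and 6.26. On the probe at base 2544 they were at 3.42, 3.18, 3.60 and 5.24 and at 7.27, 5.49, 6.75 and 6.43. On both probes the groups did not overlap on this scale, S588 was the lowest and S539 the highest of the exposed arrays, and Ct 4 was the highest control. Neither probe was well above background on any Ct array, and both were on all 4 Tc arrays, so the level in the controls is uncertain. On the background-subtracted scale the exposed mean was 4.51-fold that of the controls on the probe at base 935 (limma adjusted p = 0.0908). On the probe at base 2544 it was 6.18-fold (limma adjusted p = 0.0922). Both folds rest on control signals near background and are not lower bounds. The size depended on the background step: in the deposited values, which have no background subtraction, the log2 fold change was 0.67 (adjusted p = 0.155) on the first and 1.23 (adjusted p = 0.0185) on the other, against 2.17 and 2.63 here. In those values, and with normexp, the groups overlapped on the probe at base 935 and not on the other. With scaling to the 75th percentile, which shifts the median of all probes up by 0.165, both were called, with 2.68 (adjusted p = 0.0142) and 3.09 (adjusted p = 0.0217), and with array weights too (0.0292 and 0.0242). Without Ct 4 the probe at base 2544 was called, with 3.14 (adjusted p = 0.0424). Without Ct 1 and Ct 2 the log2 fold changes were 1.75 and 2.03 (adjusted p = 0.282 and 0.283).

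Other genes of the ectodysplasin system differed less. Eda, the ligand gene, was at 8.16, 8.76, 8.54 and 8.59 on the Ct arrays and 8.01, 8.27, 8.54 and 7.97 on the Tc arrays, with overlapping groups and a log2 fold change of -0.31 (95% confidence interval -0.76 to 0.13). Edar, the receptor of the other splice form, had -0.29 (95% confidence interval -0.99 to 0.41). Tnfrsf19, a related receptor of developing epithelium, was at 10.12, 9.89, 9.29 and 11.06 on the Ct arrays and 9.10, 10.33, 9.35 and 10.58 on the Tc arrays, without order between the groups (-0.25, adjusted p = 0.851). Eda, together with Ltb, Cd27, Tnfrsf13b and Tnfrsf17, was chosen for description after its values were seen. Of these, Cd27 also met the rule for description given at the end. Tnfsf14 did not meet that rule and is given below in every sample too.

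Because Tnfrsf12a and Eda2r had the smallest adjusted p, the 250 bases before their starts are shown, from RefSeq on GRCm38.p6, both on the minus strand, at chr17:23677450-23677699 and chrX:97377210-97377459. Capitals mark the letters TATAAA and the GC box GGGCGG, each searched on both strands. The Tnfrsf12a window held 5 GC boxes, of which none overlapped, and no TATAAA. The Eda2r window held 1 of each.
Tnfrsf12a: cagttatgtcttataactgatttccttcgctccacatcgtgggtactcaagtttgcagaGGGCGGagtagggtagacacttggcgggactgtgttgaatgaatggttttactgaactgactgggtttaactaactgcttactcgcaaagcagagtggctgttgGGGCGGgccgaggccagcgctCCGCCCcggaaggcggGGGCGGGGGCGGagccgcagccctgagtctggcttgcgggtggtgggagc
Eda2r: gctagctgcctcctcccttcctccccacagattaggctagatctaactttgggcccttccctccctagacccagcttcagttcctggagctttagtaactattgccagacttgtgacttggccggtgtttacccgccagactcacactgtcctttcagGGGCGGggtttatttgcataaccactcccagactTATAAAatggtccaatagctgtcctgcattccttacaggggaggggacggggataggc
Of 32851 windows of this length in the table, 12.4% held TATAAA and 32.7% the GC box on either strand. Of the 32 member genes matched in the table (36 windows), 7 held TATAAA and 15 the GC box. Neither of the sequences above matched the p53 half-site (in 7.13% of all windows, and in 1 member gene) or the NF-kB site (in 3.90%, and in 3 member genes), searched by their usual consensus. This says only that the letters were not in these windows.

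**Figure D2:**
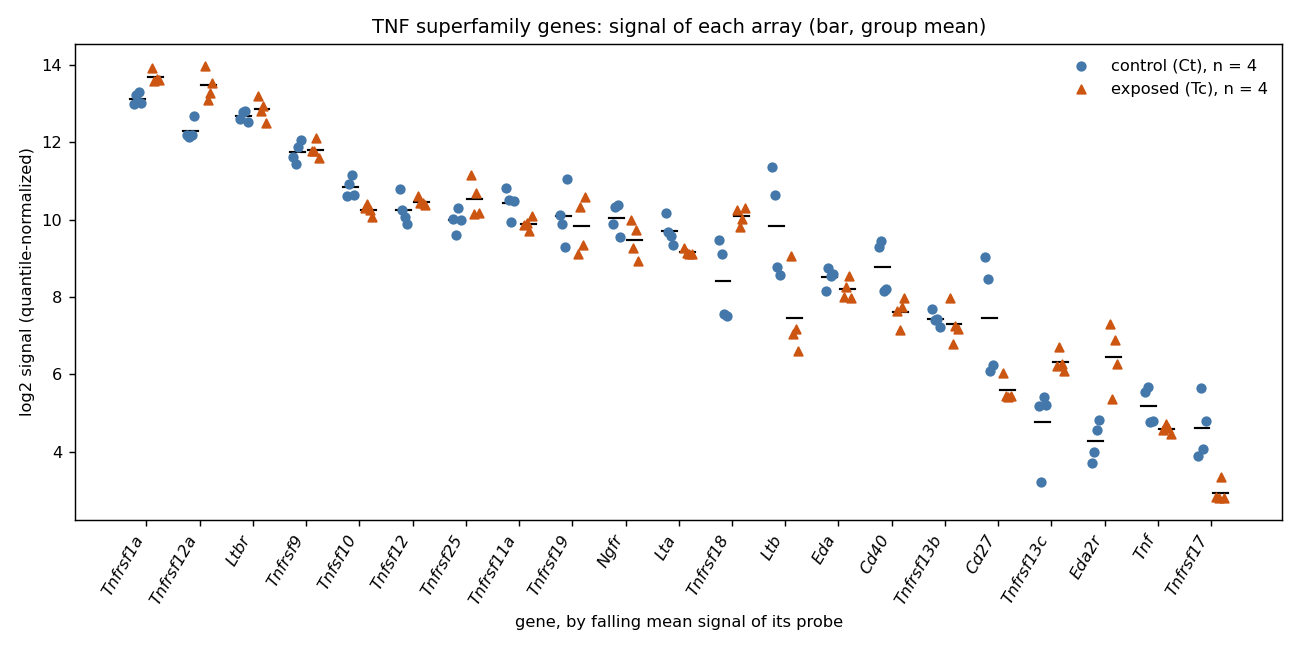
Log2 signal (vertical axis, quantile-normalized) of the representative probe of 21 described members on each array, in order of falling mean signal; blue circles are Ct arrays, orange triangles Tc arrays, and bars group means (n = 4). The triangles lie wholly above the circles for Tnfrsf1a, Tnfrsf12a, Tnfrsf18, Tnfrsf13c and Eda2r, and the circles of Tnfrsf18, Ltb, Cd40 and Cd27 split into Ct 1 and Ct 2 above and Ct 3 and Ct 4 below.

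In the TNF and lymphotoxin system no gene was called. At an unadjusted p under 0.05, 1 of its 8 genes had a higher mean in exposed thyroids (all genes, 6.56%) and 5 a lower one (all genes, 6.29%). Tnfrsf1a was at 12.98, 13.23, 13.30 and 13.01 on the Ct arrays and 13.91, 13.58, 13.63 and 13.60 on the Tc arrays. The groups did not overlap, and S539 stood above the other exposed arrays. The log2 fold change was 0.55 (SE 0.15, adjusted p = 0.182), and on the other Tnfrsf1a probe, again with no overlap, it was 0.77 (SE 0.17, adjusted p = 0.11). That other probe was called in the deposited values (0.80, adjusted p = 0.0294), without background correction (0.0291), with normexp (0.0294) and with a variance trend (0.039). Tnfrsf1b, the other TNF receptor, which lacks a death domain, had a log2 fold change of -0.68 (unadjusted p = 0.0317 in limma, adjusted p = 0.359), and its groups overlapped. Ltbr, the lymphotoxin beta receptor, was at 12.61, 12.77, 12.81 and 12.53 on the Ct arrays and 13.20, 12.82, 12.93 and 12.50 on the Tc arrays, a log2 fold change of 0.18 (95% confidence interval -0.22 to 0.59).

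Among the ligands of this system, Ltb, which forms the membrane lymphotoxin with Lta, was at 11.35, 10.65, 8.78 and 8.57 on Ct 1 to Ct 4 and 9.05, 7.04, 7.18 and 6.61 on the Tc arrays. Lta was at 10.18, 9.69, 9.58 and 9.34 and at 9.28, 9.15, 9.11 and 9.12. Tnf was at 5.55, 5.68, 4.77 and 4.79 and at 4.57, 4.71, 4.61 and 4.46, and was well above background on 2 Ct and all 4 Tc arrays. All of these genes were highest on Ct 1 and Ct 2, the arrays with high T cell markers, and for Ltb the exposed array S539, whose T cell markers were the highest of its group, overlapped the controls. The log2 fold changes were -2.37 (SE 0.77, adjusted p = 0.282) for Ltb, -0.53 (SE 0.19, adjusted p = 0.33) for Lta and -0.61 (SE 0.24, adjusted p = 0.376) for Tnf. Without Ct 1 and Ct 2 they were -1.21 (adjusted p = 0.493), -0.30 (adjusted p = 0.467) and -0.18 (adjusted p = 0.616). For Tnf, a dim probe, the value was also smaller in the deposited values (-0.19), with normexp (-0.11) and with the 75th percentile (-0.18), and with the latter 2 settings the groups overlapped. The part of lymphocytes in these differences was not tested. Tnfsf14 (LIGHT), which binds Ltbr and Tnfrsf14, was at 5.70, 5.82, 4.82 and 4.78 on Ct 1 to Ct 4 and 5.16, 3.95, 4.10 and 3.23 on the Tc arrays, and was well above background on 2 Ct arrays and no Tc array. The groups overlapped, and on the background-subtracted scale the control mean was 2.25-fold the exposed mean (adjusted p = 0.349). The log2 fold change of -1.17 was -0.66 without Ct 1 and Ct 2, -0.27 in the deposited values and -0.18 with normexp. Tnfrsf14 (HVEM), the other receptor of LIGHT, had overlapping groups and log2 fold changes of 0.20 (adjusted p = 0.676) and, on the dimmer of its probes, -0.53 (adjusted p = 0.461).

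Among the genes of T cell costimulation, Tnfrsf18 and Cd27 differed in opposite directions. Tnfrsf18 (GITR), which is abundant on regulatory T cells, was at 9.48, 9.11, 7.56 and 7.51 on Ct 1 to Ct 4 and 10.24, 9.81, 10.02 and 10.31 on the Tc arrays. It was highest on the exposed arrays, and within the controls it was higher on Ct 1 and Ct 2. The mean of the 10 T cell markers was 7.79 to 8.65 on the exposed arrays, and that list holds no marker particular to regulatory T cells. The part of T cells in the difference of Tnfrsf18 was not tested. The log2 fold change of Tnfrsf18 was 1.68 (SE 0.47, adjusted p = 0.209), and without Ct 1 and Ct 2 it was 2.58 (SE 0.20), with an adjusted p of 0.0314. With S588 left out as well it was 2.74 (SE 0.17) and not called (adjusted p = 0.096).

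Cd27, a costimulatory receptor of T cells, was at 9.04, 8.47, 6.10 and 6.25 on Ct 1 to Ct 4 and 6.04, 5.45, 5.42 and 5.44 on the Tc arrays by the probe at base 956. By the probe at base 1080 it was at 9.79, 8.88, 7.33 and 5.25 and at 5.60, 4.83, 5.22 and 5.23. The former showed no overlap, with S539 close below Ct 3, and the latter did overlap. The log2 fold changes were -1.88 (SE 0.68, adjusted p = 0.33) and -2.59 (SE 0.89, adjusted p = 0.304), and without Ct 1 and Ct 2 they were -0.59 (adjusted p = 0.366) and -1.06 (adjusted p = 0.474). The part of T cells in this difference was not tested.

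Tnfrsf9 (4-1BB) was bright, at 11.63, 11.45, 11.89 and 12.05 on the Ct arrays and 11.78, 11.77, 12.10 and 11.59 on the Tc arrays, with a log2 fold change of 0.06 (95% confidence interval -0.37 to 0.48), although its other probe was highest on Ct 1 and Ct 2 (9.56 and 9.44). Tnfrsf25 (death receptor 3) was at 10.01, 9.61, 10.31 and 10 and at 11.16, 10.14, 10.69 and 10.16, with overlapping groups and a log2 fold change of 0.56 (adjusted p = 0.458). The OX40 gene Tnfrsf4 was nearly level, at 8.80 to 9.24 on the Ct arrays and 8.90 to 9.03 on the Tc arrays (log2 fold change 0.03, 95% confidence interval -0.30 to 0.36). Tnfrsf8 (CD30), well above background on 2 Ct and 4 Tc arrays, had a log2 fold change of 0.50 (adjusted p = 0.55). The ligand genes of the same system (Cd70, Tnfsf4, Tnfsf8, Tnfsf9, Tnfsf15 and Tnfsf18) had overlapping groups throughout, and their log2 fold changes ran from -1.42 for Tnfsf18 to 1.01 for Tnfsf4, both on probes that were dim on most arrays. The value for Tnfsf18 was -0.47 without Ct 1 and Ct 2.

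**Figure D3:**
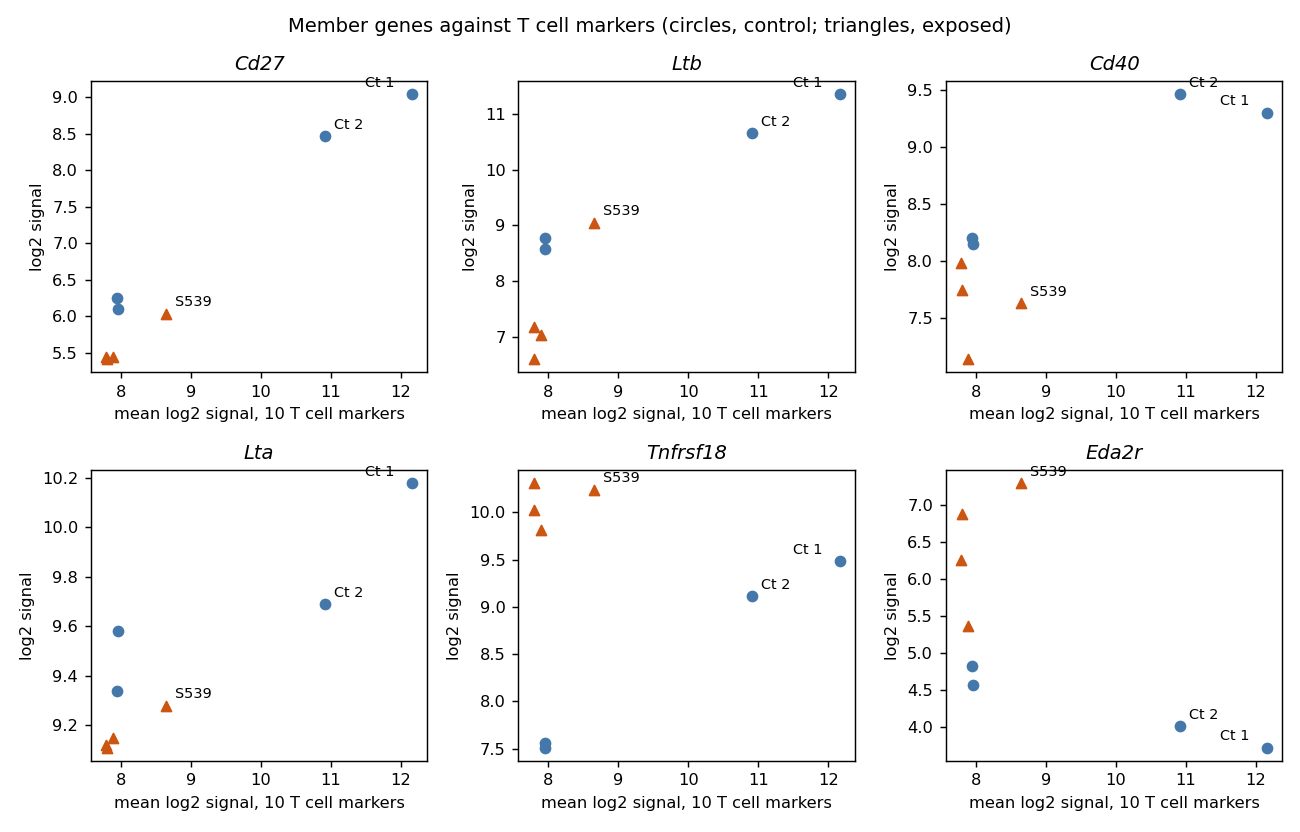
Log2 signal (vertical axis) of 6 member genes against the mean log2 signal of 10 T cell markers (horizontal axis) on the 8 arrays; circles are Ct and triangles Tc arrays. Ct 1 and Ct 2, at 12.16 and 10.91 on the horizontal axis, hold the highest values of Cd27, Ltb, Cd40 and Lta, whereas Tnfrsf18 and Eda2r are highest on Tc arrays between 7.79 and 8.65.

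Cd40, the receptor through which T cells help B cells and activate dendritic cells and macrophages, was at 9.30, 9.46, 8.15 and 8.20 on Ct 1 to Ct 4 and 7.63, 7.14, 7.74 and 7.98 on the Tc arrays. No exposed array reached the controls, and Ct 1 and Ct 2 were again the highest. The log2 fold change was -1.16 (SE 0.36, adjusted p = 0.256), and without Ct 1 and Ct 2 it was -0.55 (SE 0.26, adjusted p = 0.424). Of 7 dendritic cell markers, 3 were lower at an unadjusted p under 0.05 (all genes, 6.29%) and 1 was called lower. The mean level of the list was 6.89 to 7.76 on the Ct arrays and 6.01 to 6.09 on the Tc arrays. Of 8 macrophage markers, 7 had a lower mean, 3 at an unadjusted p under 0.05 and 1 called. The level of that list was 10.22 to 10.63 and 9.66 to 10.12. Of all probes, 0.781% were called in either direction. The part of these cells in the difference of Cd40 was not tested. Its ligand gene Cd40lg was well above background on 1 array, Ct 3, at 7.91.

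The receptors for BAFF (the product of Tnfsf13b) differed in sign. Tnfrsf13c (BAFF receptor) was at 5.18, 3.23, 5.42 and 5.22 on the Ct arrays and 6.21, 6.70, 6.26 and 6.10 on the Tc arrays by its brighter probe, well above background on 1 Ct and 4 Tc arrays. The log2 fold change was 1.55 (SE 0.48, adjusted p = 0.249), with Ct 2 far below the other controls, and without Ct 2 it was 1.03 (adjusted p = 0.136). It was 0.99 (adjusted p = 0.2) without Ct 1 and Ct 2, 0.70 (adjusted p = 0.0719) in the deposited values and 0.59 (adjusted p = 0.0729) with normexp. On the other, dim probe it was 0.31 (adjusted p = 0.901). Tnfrsf17 (BCMA), which is typical of plasma cells, was well above background on 1 Ct array and no Tc array. Its signals were 3.89, 5.66, 4.07 and 4.80 on the Ct arrays and 2.83, 2.80, 3.35 and 2.82 on the Tc arrays. The control mean was thus 3.15-fold the exposed mean (adjusted p = 0.133), against a log2 fold change of -0.59 (adjusted p = 0.13) in the deposited values. Tnfsf13b itself had a log2 fold change of -0.72 (SE 0.26, adjusted p = 0.33) with overlapping groups. The mean level of 9 B cell markers was 6.69 to 7.19 on the Ct arrays and 6.08 to 7.18 on the Tc arrays.

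Tnfrsf13b (TACI) showed how far probes of a single gene can differ. The probe at base 2451 was at 9.81, 9.32, 8.11 and 7.95 on Ct 1 to Ct 4 and 7.87, 7.27, 7.83 and 7.96 on the Tc arrays, with Ct 1 and Ct 2 high. The probe at base 408, which represents the gene, was at 7.69, 7.41, 7.43 and 7.23 and at 7.98, 6.78, 7.25 and 7.18, and the probe at base 175 was at 5.16, 6.00, 6.14 and 6.24 and at 5.74, 7.40, 6.03 and 5.87. Their log2 fold changes were -1.07 (adjusted p = 0.386), -0.14 (adjusted p = 0.85) and 0.37 (adjusted p = 0.734). That of the probe at base 2451 was -0.30 (adjusted p = 0.612) without Ct 1 and Ct 2. The separation of Ct 1 and Ct 2 was therefore seen on only 1 of the probes, the only one without a RefSeq mRNA accession.

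Of the remaining receptors and ligands, the gene of TRAIL, a ligand that triggers apoptosis through death receptors, was lower in exposed thyroids by an amount that did not rest on Ct 1 and Ct 2. Tnfsf10 was at 10.60, 10.93, 11.15 and 10.65 on the Ct arrays and 10.29, 10.40, 10.26 and 10.07 on the Tc arrays. The groups did not overlap, and Ct 3 was highest. The log2 fold change was -0.58 (SE 0.17, adjusted p = 0.221), and without Ct 1 and Ct 2 it was -0.65 (SE 0.21, adjusted p = 0.291). The TRAIL-binding receptors Tnfrsf22 and Tnfrsf23 had log2 fold changes of 0.51 and -0.03 (on the other Tnfrsf22 probe, -0.35, adjusted p = 0.467), and Tnfrsf26, a neighbour of both on chromosome 7, had 0.89 (adjusted p = 0.322) with overlapping groups. These 3 genes are close relatives, so their probes may share transcripts, which was not tested.

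Tnfrsf11a (RANK), the receptor of the osteoclast factor RANKL, was at 10.81, 10.50, 9.93 and 10.47 on the Ct arrays and 9.86, 9.92, 9.70 and 10.10 on the Tc arrays, with a small overlap and a log2 fold change of -0.53 (SE 0.21, adjusted p = 0.364). Its ligand gene Tnfsf11 was not well above background on any array. Ngfr, the low-affinity neurotrophin receptor, was at 9.89, 10.33, 10.37 and 9.55 and at 9.99, 9.26, 9.72 and 8.93, with overlapping groups (-0.56, adjusted p = 0.478). The decoy receptor gene Tnfrsf11b and the death receptor gene Tnfrsf21 had log2 fold changes of -0.90 (adjusted p = 0.525) and 0.51 (adjusted p = 0.633), with overlapping groups.

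Downstream of the receptors, 41 genes of adaptors, kinases, NF-kB subunits and regulators were read in the same fit. None was called. At an unadjusted p under 0.05, 6 were higher (all genes, 6.56%) and 10 lower (all genes, 6.29%), and their median log2 fold change was -0.02. The methods' t-test called 1 higher and 1 lower. The smallest adjusted p was 0.0728 for Ikbkg (NEMO, the regulatory subunit of the IkB kinase), with a log2 fold change of 0.62 (SE 0.12), followed by Birc3, an inhibitor of apoptosis that NF-kB induces, with -0.97 (SE 0.21, adjusted p = 0.108), and Traf5 with -0.70 (SE 0.16, adjusted p = 0.121). The NF-kB kinase gene Map3k14 had 0.70 (adjusted p = 0.172), and the inhibitors Nfkbie and Tnfaip3 had -0.98 (adjusted p = 0.179) and -0.89 (adjusted p = 0.192). Other inhibitors of the pathway ran both ways, with 0.43 for Tnip2, 0.37 for Nfkbia, -0.03 for Nfkbib, -0.10 for Cyld and -0.35 for Tnip1. Of the NF-kB subunit genes, Rela, Nfkb1 and Nfkb2 lay between -0.01 and 0.19, Relb was at -0.44 (unadjusted p = 0.0288 in limma, adjusted p = 0.348), and the dim Rel was at 0.87 (adjusted p = 0.659). Outside the rule by which members were chosen, the death receptor gene Fas was called higher, from 10.71 ± 0.17 (SD, n = 4) to 12.66 ± 0.30 (SD, n = 4), a log2 fold change of 1.95 (SE 0.18, adjusted p = 0.00662). Its ligand gene Fasl was lower by a log2 fold change of -1.55 (adjusted p = 0.323), on a dim probe.

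**Figure D4:**
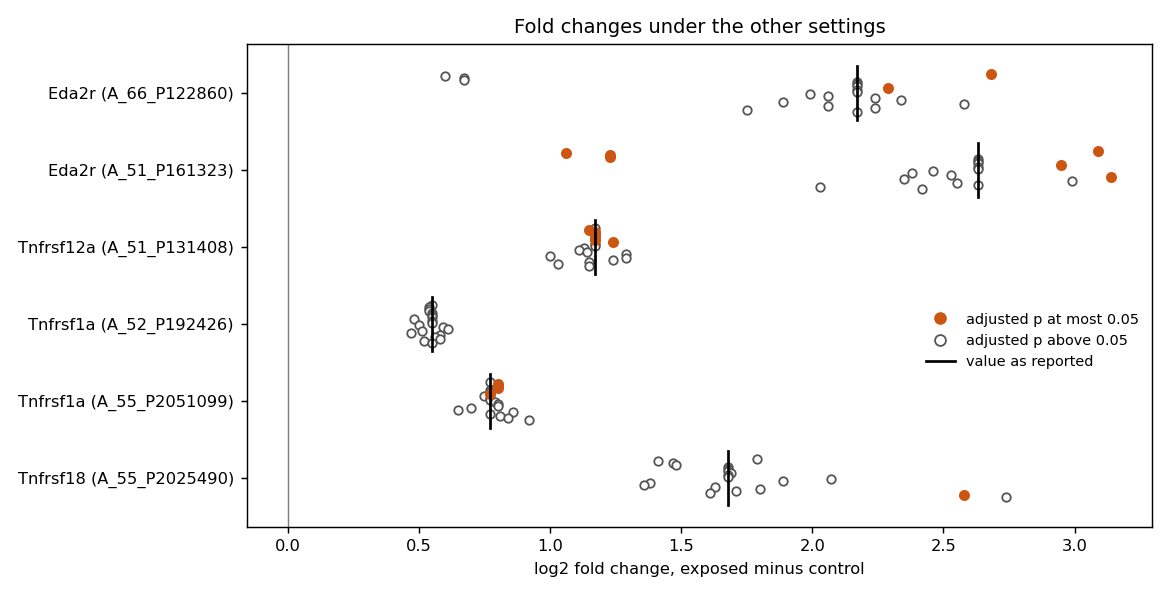
Log2 fold change (exposed minus control, horizontal axis) of 6 probes of 4 members under each other way of processing the arrays; orange points have an adjusted p of at most 0.05, open points do not, and the black line is the value as reported (2.17 and 2.63 for Eda2r, 1.17 for Tnfrsf12a, 0.55 and 0.77 for Tnfrsf1a, 1.68 for Tnfrsf18). All points lie to the right of 0, those of Eda2r spread the most, and the probe A_52_P192426 of Tnfrsf1a has no orange point.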

How the data were processed

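Per the labels and methods, total RNA of each thyroid was hybridised to an Agilent one-colour array. The authors deposited the scanner output of Feature Extraction 10.7.3.1, with the intensity of each spot, and a table of log2 values, quantile-normalized in limma. These deposited log2 values differed by at most 0.0378 (median 0.0113) from quantile-normalized log2 median signals without background subtraction, and their median was 7.51 or 7.52 on every array.

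Here the log2 of the background-subtracted intensity was quantile-normalized, and spots of a probe were averaged without control spots. Groups were compared with lmFit and eBayes (limma 3.58.1, R 4.3.3) without covariates, a procedure tested on simulated data. Members and gene lists were chosen with earlier results of these data known. A gene was read at its RefSeq mRNA probe of highest mean signal, or at its brightest probe where it had none. Given in every sample were members with a called probe (none) and the 10 brightest. Members without overlap between groups were given too if well above background on all 4 arrays of at least 1 group. Eda2r, Tnfrsf13c and Tnf met this only through the exposed arrays. Tnfrsf17, lower without overlap, did not meet it. For a dim group the fold was taken with its signal or the lowest one called well above background, whichever was higher. The latter was 2.75 on every array, below the signals of the dim groups described. The folds given for them are therefore plain ratios and not lower bounds. The alternatives were scaling to the 75th percentile, normexp (offset 50) or no background correction, a filter that drops dim probes, the deposited values, array weights, a variance trend, a plain t-test (named in the methods for comparisons of 2 groups, not for the arrays), omission of marked spots, averaging of a gene's probes, a log2 fold limit of 1, and leaving out each array in turn. Leaving out Ct 1 and Ct 2 together, with or without S588, was added after seeing the data. Precision is limited by the 4 arrays in a group. The other experiments of the study were not analysed here.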

Additional observations from a re-analysis of the deposited data

Results flagged for a closer look

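Of 74 groups of 4 values (21 described members and 16 marker lists, each in Ct and Tc), 8 held a highest or lowest value far from the other 3 by Dixon's ratio, where chance gives about 3.7. Their causes were not tested. Cd27 on S539 was at 6.04, against 5.42 to 5.45 on the other exposed arrays, and the mean of the T cell markers on S539 was 8.65, against 7.79 to 7.89. Tnfrsf1a on S539 was at 13.91, against 13.58 to 13.63. Tnfrsf12a on Ct 4 was at 12.67, against 12.13 to 12.20 on the other controls. Tnfrsf13c on Ct 2 was at 3.23, against 5.18 to 5.42. Tnfrsf17 on S589 was at 3.35, against 2.80 to 2.83, on a probe that is not well above background on any exposed array. The mean of the neutrophil markers on Ct 1 was 6.64, against 7.18 to 7.22, and that of the mast cell markers on Ct 3 was 8.56, against 9.03 to 9.12.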

How the results depend on the processing

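Over all probes 327 were called higher and 108 lower, and no member probe, member gene or pathway gene. Of the 54 member probes, 2 were called higher with scaling to the 75th percentile (all probes called in either direction, 1.04%). With the same share in parentheses, 3 were called with normexp (1.54%), without background correction (1.73%), in the deposited values (1.72%) and with array weights (1.72%). The count was 2 with a variance trend (1.34%) and 1 without Ct 1 and Ct 2 (0.149%). No member probe was called lower in these settings. Member genes called by their representative probe numbered 1 in each of these settings but array weights, with 2. Pathway genes called higher and lower were 1 and 1 with normexp, without background correction, with the t-test and with array weights, and 1 higher in the deposited values. Calls over all probes were 586 higher and 270 lower with normexp, 648 and 314 without background correction, 645 and 310 in the deposited values, 522 and 222 with a variance trend, 584 and 375 with array weights and 60 lower with the t-test. Scaling to the 75th percentile shifted the median of all probes by 0.165 and gave 84.7% of calls as higher, against 75.2%; with array weights it was 60.9%. Leaving out 1 array gave 85 to 316 probes called higher, 15 to 169 lower, 0 to 1 member probes, and log2 fold changes of -0.37 to 0.04 for Tnfrsf13b, -0.05 to 0.15 for Tnfrsf9 and -0.51 to 0.08 for Tnfrsf19. Without Ct 1 and Ct 2, 58 were higher and 25 lower, and 8 member genes lay apart above the controls (all genes, 13.3%) and 9 below (14.6%); with S588 left out as well 0 and 0 were called by limma (12 member probes at an unadjusted p under 0.05), and 9 members lay apart above (all genes, 16.7%) and 10 below (17%).

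Of 440 recomputed member fold changes, 418 kept their direction and side of the threshold, 8 passed it and 14 changed sign or rounded to 0.00, all within 3 members. With the t-test, the variance trend, the filter on dim probes and the fold limit, the fold change could not move, since the values were the same. With the fold limit the adjusted p was the same too. The deposited values and those without background correction were nearly the same. The 418 are therefore not independent checks. Tnfrsf13b was 0.08 with the 75th percentile, 0.07 with normexp, 0.05 without background correction and in the deposited values, 0.04 without S588 and 0.15 without Ct 1, Ct 2 and S588. Tnfrsf9 was -0.05 without Ct 2, -0.04 without S589, -0.16 without Ct 1 and Ct 2, -0.15 without S588 as well and -0.20 with all probes averaged. Tnfrsf19 was 0.08 without Ct 4, 0.00 without S539 and 0.00 with all probes averaged. The causes were not tested. No paired analysis was possible because the groups share no replicate numbers. Signals near background limit the size of the differences of Eda2r, Tnfrsf13c, Tnfrsf17 and Tnf.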
